A study of Mus musculus with 5 samples.

Results

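The immediate early and growth-factor feedback genes are a set of 42 genes, chosen by symbol from a fixed list, among 49315 genes in the deposited count table. Immediate early genes are transcribed within minutes of a growth factor, cytokine or stress signal, without new protein synthesis, through MAP kinases acting on the transcription factors ELK and SRF and through kinases acting on CREB. Their first products are the FOS, JUN, EGR and NR4A transcription factors, followed by inhibitors of the same pathways, the dual-specificity phosphatases, Sproutys and Spreds, and by ZFP36 proteins that bind AU-rich elements and speed the decay of these mRNAs. In vessels, angiotensin II acts through its type 1 receptor and MAP kinases, and the genes are also known to respond to the dissociation of tissue into cells.

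The samples were lung endothelial cell isolates of mice, with 2 libraries from TET2KO mice and 3 libraries from WT mice. TET2KO mice lacked TET2, a dioxygenase that oxidises 5-methylcytosine in DNA, in endothelial cells only, and all mice of both genotypes had been infused with angiotensin II for 28 days. No uninfused group was analysed here, and the Cre driver, the deleted Tet2 exons, strain, age, sex and the way cells were isolated are not given in the sources used here. Whether the libraries stem from different animals is not stated, so the p-values describe the spread among these 5 libraries, which may be partly technical.

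Total counts were 31239463 and 30035235 in the TET2KO libraries and 27346804, 35440257 and 31005444 in the WT libraries. All 42 genes passed the filter on low counts. Tet2 itself had 139 and 162 CPM (counts scaled to library size by the TMM method) in the TET2KO libraries and 141, 174 and 131 CPM in the WT libraries, with a log2 fold change of 0.02 ± 0.19 (SE), and since the deleted exons are not given, its gene-level count does not check the labels. The deposited table of the authors' own comparison did not match the labels. Its log2 fold changes equalled, within 0.01, those of TET2KO replicates 1 and 2 together with WT replicate 3 over WT replicates 1 and 2 for 18016 of 18018 genes, and those of the labelled grouping for 2.75% of them. Results below follow the labels. The fold changes of some genes, and the count of genes at an unadjusted p under 0.05, are also given without the library labelled WT replicate 3.

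Endothelial transcripts were abundant in every isolate: Cdh5, the junctional cadherin of endothelium, was at 1331 and 1237 CPM in the TET2KO libraries and at 655.6, 403.9 and 966.5 CPM in the WT libraries. CPM values of cell type markers are without TMM scaling. Transcripts of blood cells were abundant as well. Lyz2, a lysozyme of macrophages, was at 3014 and 4916 CPM in TET2KO and 5488, 15210 and 1788 CPM in WT. The pan-leukocyte marker Ptprc was at 1277 and 1237 CPM in TET2KO and 1578, 1006 and 1419 CPM in WT, above Cdh5 in every WT library. The 12 endothelial markers summed to 5812 and 6146 CPM in TET2KO and 3517, 2358 and 4410 CPM in WT, so the groups did not overlap. With TMM scaling all 12 had a fold change above 0, with a median log2 value of 0.73. Both TET2KO libraries were above all WT libraries for 11 of the 12 (91.7%), against 12.4% of all genes tested. The 11 macrophage and monocyte markers found summed to 5466 and 10170 CPM in TET2KO and 10690, 32840 and 3608 CPM in WT, and WT replicate 2 stood apart. No marker of either list was at 0 in all libraries. The 7 B cell markers summed to 3949 and 2463 CPM in TET2KO and 4519, 1121 and 5609 CPM in WT. The 5 pan-leukocyte markers summed to 3446 and 3268 CPM in TET2KO and 4372, 3926 and 4041 CPM in WT, lower in TET2KO without overlap. The 10 epithelial markers summed to 930.8 and 1893 CPM in TET2KO and 954.1, 707.8 and 456.4 CPM in WT, with overlap, and 9 of the 10 had a fold change above 0, with a median log2 value of 0.82. Fewer cells of a type and less RNA per cell cannot be told apart in such bulk isolates, and the part of these cell types in the differences below was not tested.

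Promoter windows from RefSeq (GRCm38.p6), 250 bases before to 50 bases after a transcription start, were available for 32 of the 42 genes. The 4 windows printed here were chosen because each holds a classical response element of the pathway, in capitals. Jun (chr4:95052173-95052472, minus strand) holds TGACATCA, the AP-1-like element through which JUN acts on its own gene, 45 to 38 bases before the start. Dusp5 (chr19:53528895-53529194, plus strand) holds a tandem pair of CArG boxes, the element bound by SRF, 82 to 63 bases before the start. Zfp36 (chr7:28379179-28379478, minus strand) holds 1 CArG box 58 to 49 bases before the start. Dusp1 (chr17:26508423-26508722, minus strand) holds TGACGTCA, the cAMP response element bound by CREB, 143 to 136 bases before the start.
Jun: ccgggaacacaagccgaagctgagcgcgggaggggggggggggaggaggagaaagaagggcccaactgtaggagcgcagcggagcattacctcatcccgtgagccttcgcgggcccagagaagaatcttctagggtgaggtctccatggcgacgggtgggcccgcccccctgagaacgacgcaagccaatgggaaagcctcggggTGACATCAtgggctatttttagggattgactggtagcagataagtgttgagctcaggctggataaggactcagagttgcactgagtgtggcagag
Dusp5: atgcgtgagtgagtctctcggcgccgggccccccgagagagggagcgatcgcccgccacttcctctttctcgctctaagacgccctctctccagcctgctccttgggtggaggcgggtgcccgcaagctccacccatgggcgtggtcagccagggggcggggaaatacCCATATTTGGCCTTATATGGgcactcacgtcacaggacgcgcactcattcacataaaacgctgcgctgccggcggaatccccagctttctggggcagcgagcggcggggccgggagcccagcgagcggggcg
Zfp36: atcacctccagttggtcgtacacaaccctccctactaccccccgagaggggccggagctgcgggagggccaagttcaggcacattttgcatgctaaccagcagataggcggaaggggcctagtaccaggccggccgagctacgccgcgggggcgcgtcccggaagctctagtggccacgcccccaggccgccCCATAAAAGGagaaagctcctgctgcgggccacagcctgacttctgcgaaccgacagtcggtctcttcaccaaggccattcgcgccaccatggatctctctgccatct
Dusp1: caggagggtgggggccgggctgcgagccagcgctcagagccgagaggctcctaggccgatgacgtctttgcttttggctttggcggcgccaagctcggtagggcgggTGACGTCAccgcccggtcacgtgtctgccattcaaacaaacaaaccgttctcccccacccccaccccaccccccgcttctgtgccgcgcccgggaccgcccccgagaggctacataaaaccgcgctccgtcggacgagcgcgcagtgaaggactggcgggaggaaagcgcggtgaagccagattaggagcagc

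Motifs were searched on both strands, and a match describes letters in a window, not a bound site. A CArG box was found for 3 of 32 genes (9.38%; Dusp5, Egr2 and Zfp36), against 1.81% of the 27025 genes with a window. TGACGTCA was found for 4 genes (12.5%; Btg2, Dusp1, Maff and Ppp1r15a), against 2.03% of all genes. TGACATCA, which differs from it by 1 letter, was found for 3 genes (9.38%; Jun, Klf6 and Maff), against 4.18%. The EGR site GCGGGGGCG was found for 5 genes (15.62%), among them Fosb and Nr4a1, against 3.31%, and the E-box CACGTG for 8 genes (25.0%), among them Per1, against 8.09%. The AP-1 site TGACTCA was found for 1 gene (3.12%; Csrnp1), against 5.95%, and TATAAA for 8 genes (25.0%), Fos and Junb included, against 15.67%. The 42 windows of these 32 genes, some with several starts, had a median GC content of 62.5%, against 52.7% over all 32851 windows. The motif shares were not matched for GC content, and the 27025 genes were not limited to the genes tested here. The other 10 genes had no window.

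The genes were short and their 3′ ends rich in AU-rich pentamers. In the GENCODE annotation of GRCm38 the median span was 5211 bp, against 23666.5 bp for 14532 protein-coding genes tested, and 19 of the 42 genes (45.2%) spanned under 5000 bp, against 11.6% of those genes. Ier3 was the shortest at 1240 bp, and Jun has a single exon. At least 3 copies of ATTTA, the core of the element bound by ZFP36, were present in the longest 3′ UTR of 25 genes (59.5%), against 37.6% of 14509 protein-coding genes. TATTTAT was present in 24 genes (57.1%), against 29.2%. Fos, a textbook case of AU-driven decay, had 4 pentamers in 818 bases, Ier3 had 5 in 616 bases, Apold1 had 13 in 2514 bases, and Ier2 had none in 758 bases. The genes overlapped in place with an annotated gene of the opposite strand in 13 of 42 cases, among them Jun with Junos and Junb with Prdx2. Among the 14532 protein-coding genes tested, 6403 had such an overlap, so it is not particular to this set. No source used here says whether counting used strand, so the counts of these 13 genes may include reads of the partner.

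Levels per gene length, as TPM, were high in every library. The 42 genes held 3.271% and 3.537% of all TPM in the TET2KO libraries and 2.703%, 2.429% and 2.971% in the WT libraries, so their share was higher in both TET2KO libraries. This share is a sum in which the highest genes weigh most, and it is not TMM-scaled. The TMM factor was 0.835 in WT replicate 2, against 1.06 and 1.06 in TET2KO and 1.04 and 1.02 in WT replicates 1 and 3. TMM scaling thus raises WT replicate 2 relative to the others, so the size of the gap between the groups depends on the scaling. Gene by gene, with TMM scaling, 22 of the 42 had a fold change above 0 and the median log2 value was 0.02. Fos, the partner of JUN proteins in AP-1, ranked first among the 42 by mean TPM, at 3873 and 4409.6 TPM in TET2KO and 3310.4, 3402 and 2896 TPM in WT. It stood between rank 11 and rank 26 among all genes of a library. Junb, a JUN protein often opposed to JUN in growth control, followed at 3007 and 3676 TPM in TET2KO and 3891, 2826 and 2953 TPM in WT, above Fos in WT replicates 1 and 3 only. Fosb was at 2885 and 3141 TPM in TET2KO and 2074, 2520.1 and 1696 TPM in WT, below Junb in all 5 libraries. Among the 100 highest genes of a library were 12 and 11 of the 42 in TET2KO and 9, 7 and 11 in WT.

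**Figure D1:**
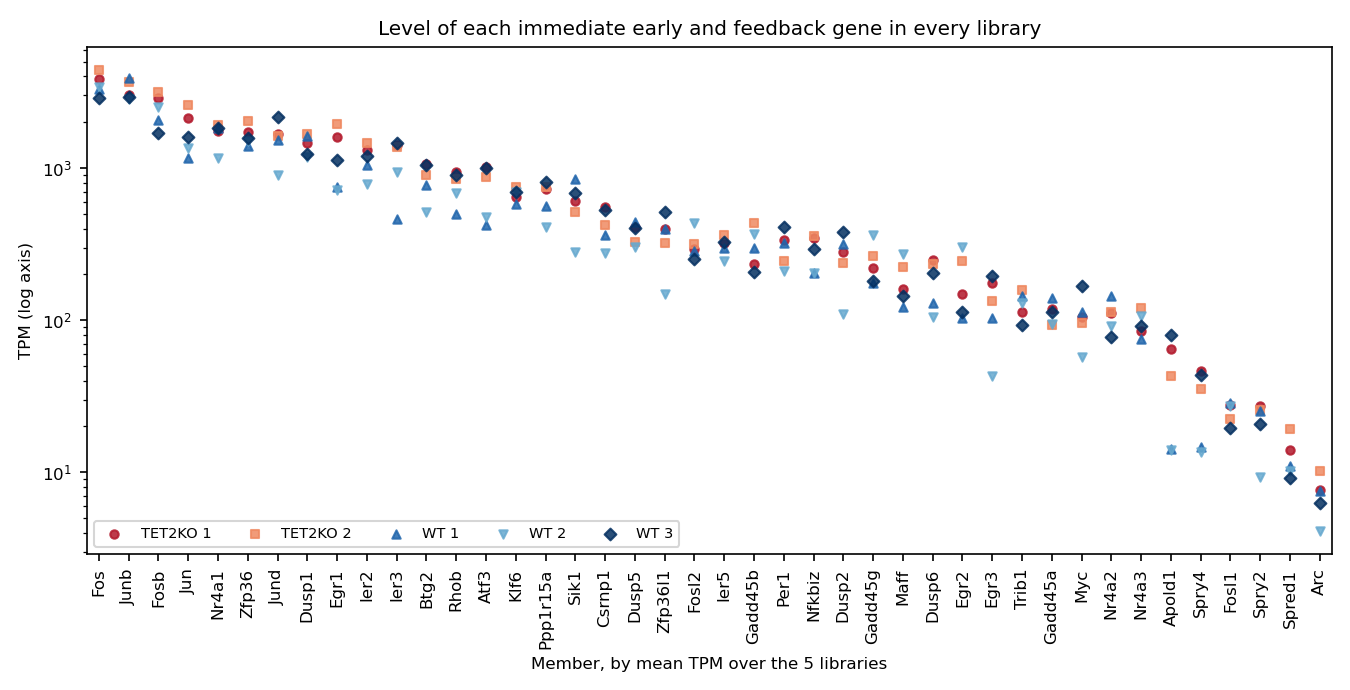
TPM of the 42 genes (log axis) in each of the 5 libraries, ordered by mean TPM; each point is 1 library. Fos leads at 2896 to 4409.6 TPM and Arc is last at 4.11 to 10.24 TPM, and for many genes the points of neighbours in the order overlap.

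The next places were taken by Jun, Nr4a1, Zfp36, Jund, Dusp1, Egr1, Ier2 and Ier3, whose mean levels lay between 1771 and 1134 TPM. At the low end were Spred1, a membrane-bound inhibitor of RAS signalling, at 9.12 to 19.1 TPM, and Arc, a capsid-forming protein known from neurons, at 4.11 to 10.2 TPM. Of 41 pairs of neighbours in the order by mean, 6 kept the same order in all 5 libraries, and the other neighbours changed places in at least 1 library. The ranking as a whole was similar between libraries. Spearman's rho across the 42 genes, which share each library's depth and scaling, was between 0.918 for WT replicates 1 and 2 and 0.991 for TET2KO replicate 1 and WT replicate 3. These are descriptions across genes, which are not independent replicates.

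In the Fos, Jun, Egr, Nr4a and Dusp families the same gene led in every library. Fos made up 53.3 to 59.5% of the TPM of the 4 Fos family genes in every library and Fosb 34.9 to 40.8%, while Fosl1 stayed at or below 0.5%. Nr4a1, an orphan nuclear receptor, held 85.4 to 91.6% of Nr4a TPM, and Egr1, a zinc finger factor, 67.7 to 83.7% of Egr TPM. Jun was at 0.706 and 0.711 of the Junb level in TET2KO and at 0.299, 0.479 and 0.540 in WT. The TET2KO libraries thus lay above all WT libraries. Of the other ratios taken, Fosl2 over Fos was separated too, lower in TET2KO. Fosb over Fos, Junb over Jund and Egr1 over Egr2 or Egr3 overlapped between the groups. No background share was computed for such ratios. Dusp1, which dephosphorylates JNK, p38 and ERK, exceeded Dusp6, an ERK-selective phosphatase, by 5.92 and 7.11 times in TET2KO and by 12.4, 11.3 and 6.07 times in WT, where WT replicate 3 lay between the TET2KO libraries.

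The genotype comparison asks whether loss of endothelial TET2 moved these genes after angiotensin II infusion. No gene of the 42 passed an adjusted p of 0.05 in the edgeR quasi-likelihood test, adjusted by Benjamini-Hochberg over all 18727 genes tested; the lowest adjusted p was 0.792, for Egr1. The background was 0% as well, since no gene passed in edgeR. At an unadjusted p under 0.05 edgeR called 1098 genes (5.86%), 997 of them higher in TET2KO and 101 lower, and 1 of the 42 (2.38%), so the share among the 42 was below that of all genes. Limma-voom passed 0 genes after adjustment and DESeq2 passed 23, or 60 on the genes that edgeR tested, and none of the 42 was among them. The log2 fold change, TET2KO over WT, was above 0 for 22 of the 42 genes (52.4%), against 41.6% of all genes tested, and the median was 0.02, against -0.08 over all genes. That split moved with the scaling: 27 of the 42 were above 0 with upper quartile scaling, 31 with library totals and 37 on log2(TPM + 1), where the median of all genes was 0.008, 0.06 and 0.13. The TET2KO libraries both exceeded every WT library in 5 of the 42 genes (11.9%) and were both under every WT library in 2 (4.76%), against 12.4% of all genes in each direction, so these shares were near or under the background.

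**Figure D2:**
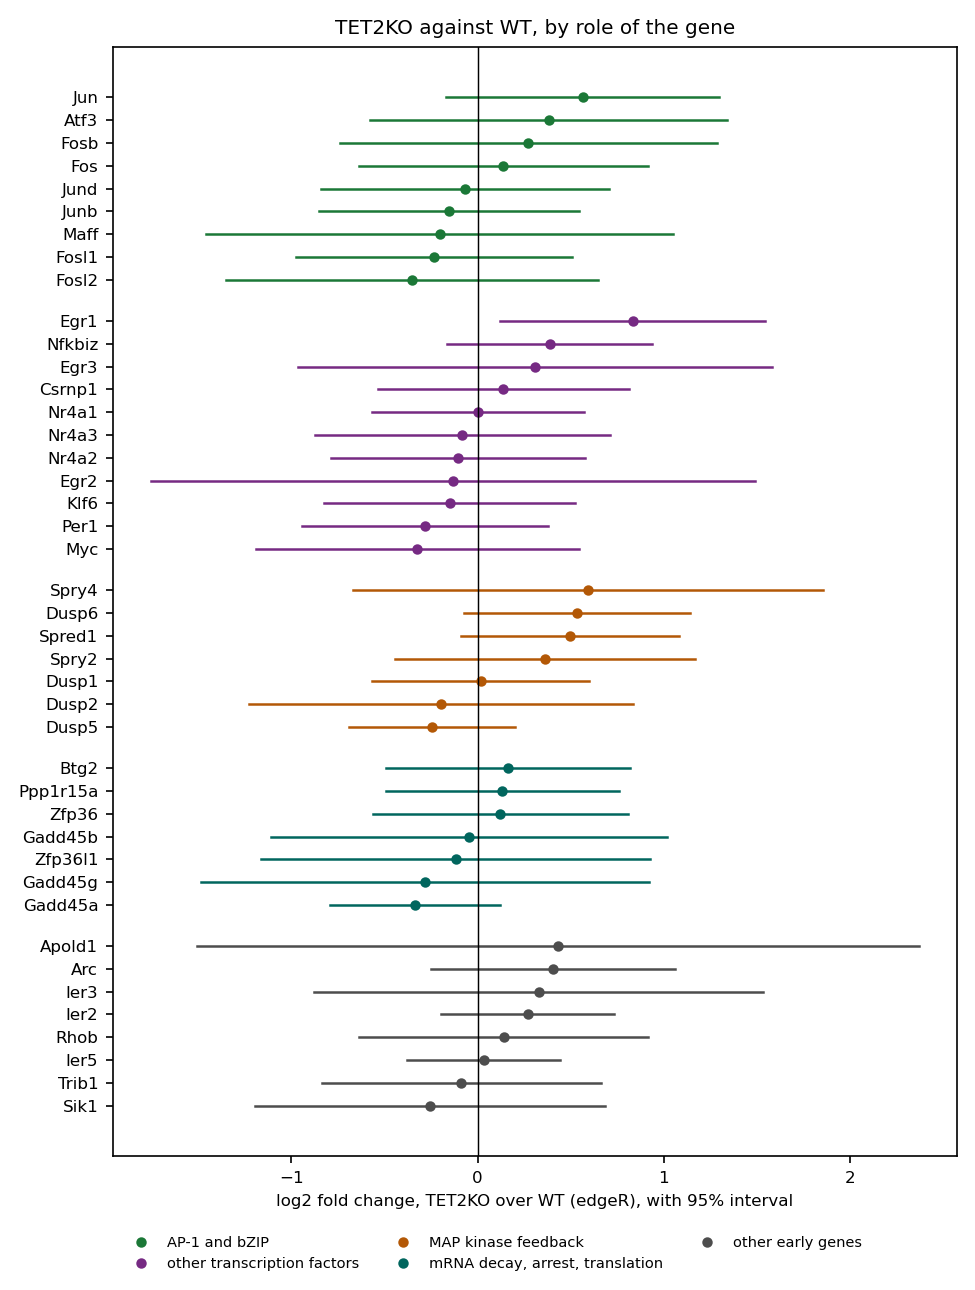
Log2 fold change of each of the 42 genes, TET2KO over WT, with its 95% interval from edgeR (2 TET2KO and 3 WT libraries), in blocks by role. The interval of Egr1 (0.12 to 1.55) is the one that does not include 0.

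Among the 9 AP-1 and related bZIP factors, 4 had a fold change above 0, the median was -0.07 and none had an unadjusted p under 0.05. Jun, the main transactivating partner of FOS, had 1853 and 2286 CPM in TET2KO, against 1062, 1640.2 and 1497 CPM in WT. Both TET2KO libraries were above all WT libraries, with a mean of 2070 ± 306 CPM in TET2KO (SD, n = 2) and 1400 ± 301 CPM in WT (SD, n = 3). Jun had a log2 fold change of 0.56 ± 0.29 (SE) with an edgeR adjusted p of 0.864 by Benjamini-Hochberg. Atf3, a stress-induced bZIP repressor, had 597 and 516 CPM in TET2KO and 259, 391 and 631 CPM in WT, where WT replicate 3 was the highest library of all. Its log2 fold change was 0.38 ± 0.39, and it was 0.12 without WT replicate 1, 0.34 without replicate 2 and 0.80 without replicate 3.

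Fos had 2493 and 2843 CPM in TET2KO and 2227, 3038 and 2004.5 CPM in WT, Fosb had 4930.1 and 5375 CPM in TET2KO and 3702, 5974 and 3116 CPM in WT, and WT replicate 2 was the highest and WT replicate 3 the lowest for both. The log2 fold change of Fos was 0.14 ± 0.31, and it was 0.08, 0.36 and 0.05 when WT replicate 1, 2 or 3 was left out. For Fosb it was 0.27 ± 0.41, and 0.18, 0.63 and 0.12 in the same order. Junb had 1894 and 2319 CPM in TET2KO and 2560.4, 2469 and 1999.5 CPM in WT, with overlapping groups and a log2 fold change of -0.15 ± 0.28. Jund, the most constant of the JUN proteins in many cells, had 767 and 739 CPM in TET2KO and 732, 567 and 1067 CPM in WT, so that the WT libraries spanned the TET2KO ones (log2 fold change -0.07 ± 0.31). The groups also overlapped for Fosl1 and Fosl2, the FOS-related antigens, and for Maff, a small MAF protein without a transactivation domain. Fosl2 had 777 and 838 CPM in TET2KO and 791, 1587 and 718 CPM in WT, with WT replicate 2 alone high, and Maff had 93.5 and 129 CPM in TET2KO and 74.3, 220.2 and 89.5 CPM in WT, again with WT replicate 2 high.

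Of the 11 zinc finger, nuclear receptor and other transcription factors, 4 had a fold change above 0 and the median was -0.08. Egr1, a zinc finger factor induced through SRF, had 1977 and 2382 CPM in TET2KO, against 962, 1223 and 1483 CPM in WT. Every TET2KO library was above every WT library, with a mean of 2179.5 ± 286 CPM in TET2KO (SD, n = 2) and 1223 ± 261 CPM in WT (SD, n = 3). The log2 fold change of Egr1 was 0.83 (95% interval 0.12 to 1.55), the unadjusted edgeR p was 0.0289 and the adjusted p 0.792 by Benjamini-Hochberg, so the difference did not pass the test over all genes. Nfkbiz, an inducible nuclear partner of NF-kappaB, had 475 and 494 CPM in TET2KO and 293, 389 and 431 CPM in WT, without overlap, and a log2 fold change of 0.39 ± 0.22.

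The other Egr genes were not ordered by genotype. Egr2, known from Schwann cells and lymphocytes, had 139 and 227 CPM in TET2KO and 99.6, 387 and 114 CPM in WT, with WT replicate 2 far above the rest. Egr3 had 68.2 and 51.8 CPM in TET2KO and 41.6, 22.9 and 80.7 CPM in WT, where WT replicate 2 was the lowest and WT replicate 3 the highest. The 2 genes thus ran in opposite directions in WT replicate 2, the library with the highest macrophage marker sum. The log2 fold change of Egr2 was -0.13 ± 0.65 with all libraries and 0.80 without WT replicate 2, and that of Egr3 was 0.31 ± 0.51 with all libraries and 0.93 without WT replicate 3.

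Nr4a1 had 1182.5 and 1303 CPM in TET2KO and 1301, 1090.3 and 1337 CPM in WT, a narrow range with a log2 fold change of -0.0005 ± 0.23. Nr4a2 and Nr4a3, its close relatives, overlapped between the groups too, at 92.1 to 168 CPM and 129 to 242 CPM over the 5 libraries. Per1, a circadian repressor that cAMP and glucocorticoids induce, had 522 and 379 CPM in TET2KO and 515, 451 and 676 CPM in WT, and a log2 fold change of -0.28 ± 0.27. That value shrank to -0.071 without WT replicate 3, the highest library, and to -0.069 without TET2KO replicate 2, the lowest. Klf6, a zinc finger factor active after vascular injury, was at 700 to 1118 CPM, Csrnp1, an AXIN1-induced nuclear protein, at 361 to 545 CPM, and Myc, the growth regulator, at 59.3 to 134 CPM. In these 3 genes the highest library was a WT library.

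**Figure D3:**
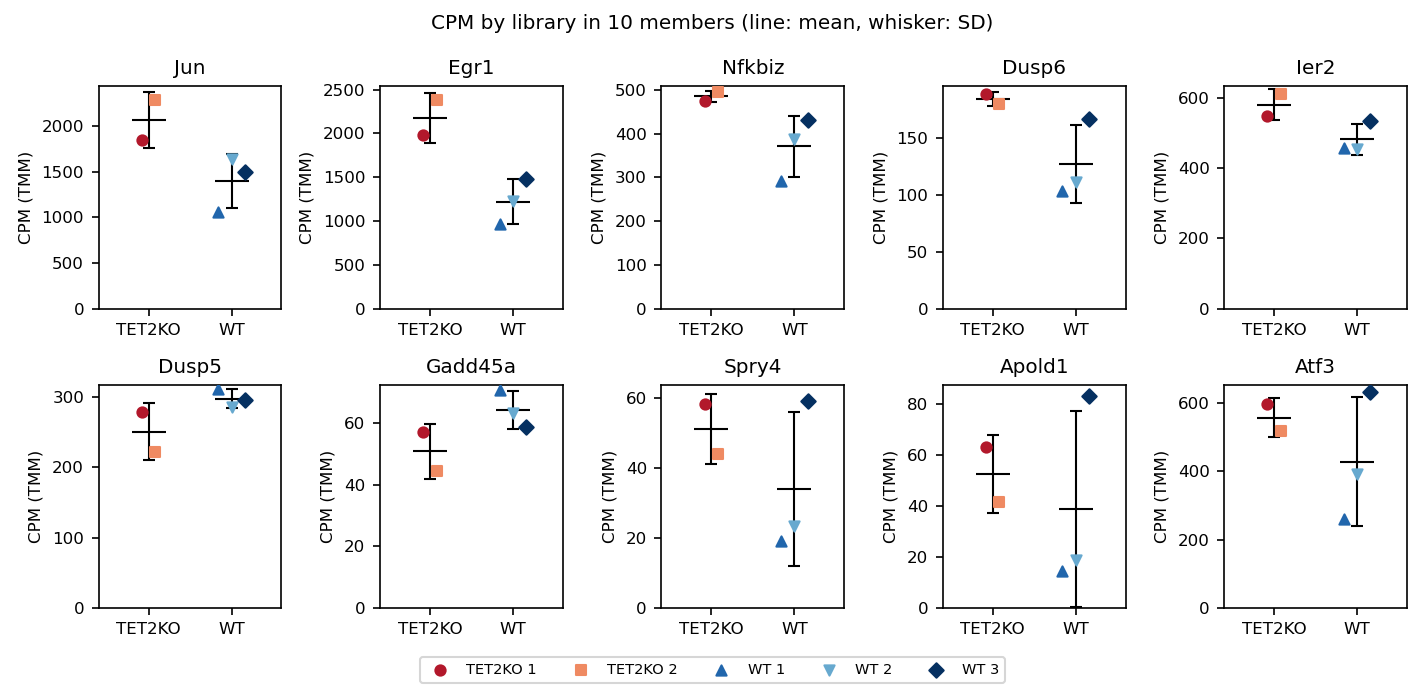
TMM-scaled CPM of 10 genes in each library, TET2KO left of WT; the line is the mean, the whisker the SD (n = 2 and n = 3). In Jun, Egr1, Nfkbiz, Dusp6 and Ier2 both TET2KO points lie above all WT points, in Dusp5 and Gadd45a below them, and in Spry4, Apold1 and Atf3 WT replicate 3 lies above both TET2KO points and the other WT libraries lie below.

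The 7 feedback inhibitors of MAP kinases and receptor tyrosine kinases had 5 fold changes above 0 and a median of 0.36, and none of the 7 had an unadjusted p under 0.05. Dusp6, the cytoplasmic phosphatase of ERK, had 189 and 180.4 CPM in TET2KO, against 104, 112 and 167 CPM in WT. The groups did not overlap, and WT replicate 3 was closest to TET2KO. The log2 fold change was 0.54 ± 0.24, with an edgeR adjusted p of 0.864 by Benjamini-Hochberg, and 0.81 without WT replicate 3. Spry4, an inhibitor of RAS activation by receptor tyrosine kinases, had 58.1 and 44.0 CPM in TET2KO and 19.1, 23.5 and 59.0 CPM in WT. The library labelled WT replicate 3 was the highest of the 5, and the other WT libraries were lower than both TET2KO libraries. Spry4 had a log2 fold change of 0.59 ± 0.51 with all libraries, and 0.31, 0.40 and 1.29 when WT replicate 1, 2 or 3 was left out.

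Spred1 had 26.0 and 35.5 CPM in TET2KO and 21.1, 26.1 and 18.2 CPM in WT, with 1 WT library just above the lower TET2KO library and a log2 fold change of 0.50 ± 0.24. Spry2, another Sprouty, had 15.4 and 14.6 CPM in TET2KO and 15.0, 7.37 and 12.8 CPM in WT. WT replicate 2 was the low library, and the log2 fold change of 0.36 ± 0.32 was 0.15 without it. Dusp1 had 1079 and 1237 CPM in TET2KO and 1244, 1215 and 977 CPM in WT, a log2 fold change of 0.016 ± 0.23. Dusp5, a nuclear phosphatase of ERK whose promoter window holds the CArG pair shown above, had 279 and 222 CPM in TET2KO and 311, 285 and 295 CPM in WT. Its range within WT, 1.09 times, was the narrowest of the 42, and both TET2KO libraries were below all WT libraries, with a log2 fold change of -0.25 ± 0.18. Dusp2, a nuclear phosphatase of lymphoid cells, had 153 and 130.4 CPM in TET2KO and 180, 83.5 and 224 CPM in WT, so that WT replicate 2 was the lowest library and the groups overlapped (log2 fold change -0.20 ± 0.41).

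In the 7 regulators of mRNA decay, growth arrest and translation the median was -0.05 and 3 fold changes were above 0. Zfp36, which binds AU-rich elements and recruits the deadenylation machinery, had 1648 and 1941 CPM in TET2KO and 1380, 1973 and 1598 CPM in WT, with overlap and a log2 fold change of 0.12 ± 0.28. Gadd45a, a growth arrest protein induced by DNA damage, had 57.2 and 44.5 CPM in TET2KO and 70.8, 63.2 and 58.7 CPM in WT. Both TET2KO libraries were below all WT libraries, by a small gap at TET2KO replicate 1, and the log2 fold change was -0.34 ± 0.18. Gadd45g, its relative, had 70.1 and 84.4 CPM in TET2KO and 59.0, 161 and 62.1 CPM in WT, with WT replicate 2 alone high and a log2 fold change of -0.28 ± 0.48. Gadd45b was at 76.6 to 176 CPM over the 5 libraries, Zfp36l1, a paralog of Zfp36, at 167 to 453 CPM, Btg2, an antiproliferative partner of the deadenylase complex, at 536 to 839 CPM, and Ppp1r15a, the stress-induced subunit of the eIF2alpha phosphatase, at 459 to 697 CPM. The groups overlapped in each of these 4 genes.

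The other 8 early genes had 6 fold changes above 0 and a median of 0.20. Ier2, a nuclear early response protein, had 549 and 611 CPM in TET2KO and 457, 455 and 533 CPM in WT, without overlap, and a log2 fold change of 0.27 ± 0.19. Apold1, an early gene of endothelial cells, had 63.3 and 41.7 CPM in TET2KO and 14.5, 18.9 and 83.3 CPM in WT. WT replicate 3 was the highest library and the other WT libraries were the lowest, a range within WT of 5.73 times, the widest of the 42. The log2 fold change of Apold1 was 0.43 ± 0.78 with all libraries. Leaving out 1 WT library at a time gave 0.04 for replicate 1, 0.11 for replicate 2 and 1.68 for replicate 3. Arc had 6.40 and 8.58 CPM in TET2KO and 6.59, 4.77 and 5.62 CPM in WT, with overlap at WT replicate 1 and a log2 fold change of 0.40 ± 0.26. Sik1, a salt-inducible kinase that restrains CREB coactivators, had 746 and 636 CPM in TET2KO and 1085, 480.0 and 910.0 CPM in WT (log2 fold change -0.26 ± 0.38).

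Ier3, a regulator of cell survival, had 440.5 and 429 CPM in TET2KO and 149, 405 and 486 CPM in WT, with WT replicate 1 alone low. Rhob, an early-induced small GTPase of endosomes, showed the same low library, at 571 and 517 CPM in TET2KO and 318, 576 and 587 CPM in WT. Ier5 stayed within 281 to 326 CPM in all libraries, and Trib1, a pseudokinase scaffold for protein degradation, was at 156 to 280 CPM. Over the 42 genes WT replicate 1 was the lowest library in 17 (40.5%), against 12.6% of all genes tested, and WT replicate 3 was the highest in 15 (35.7%), against 23.3%. The ratio of the highest to the lowest WT library had a median of 1.80 over the 42 genes, against 1.46 over 11210 genes with a mean above 5 CPM. The WT spread was thus wider in these genes than in the typical tested gene above that level, and genes of lower level were not compared.

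**Figure D4:**
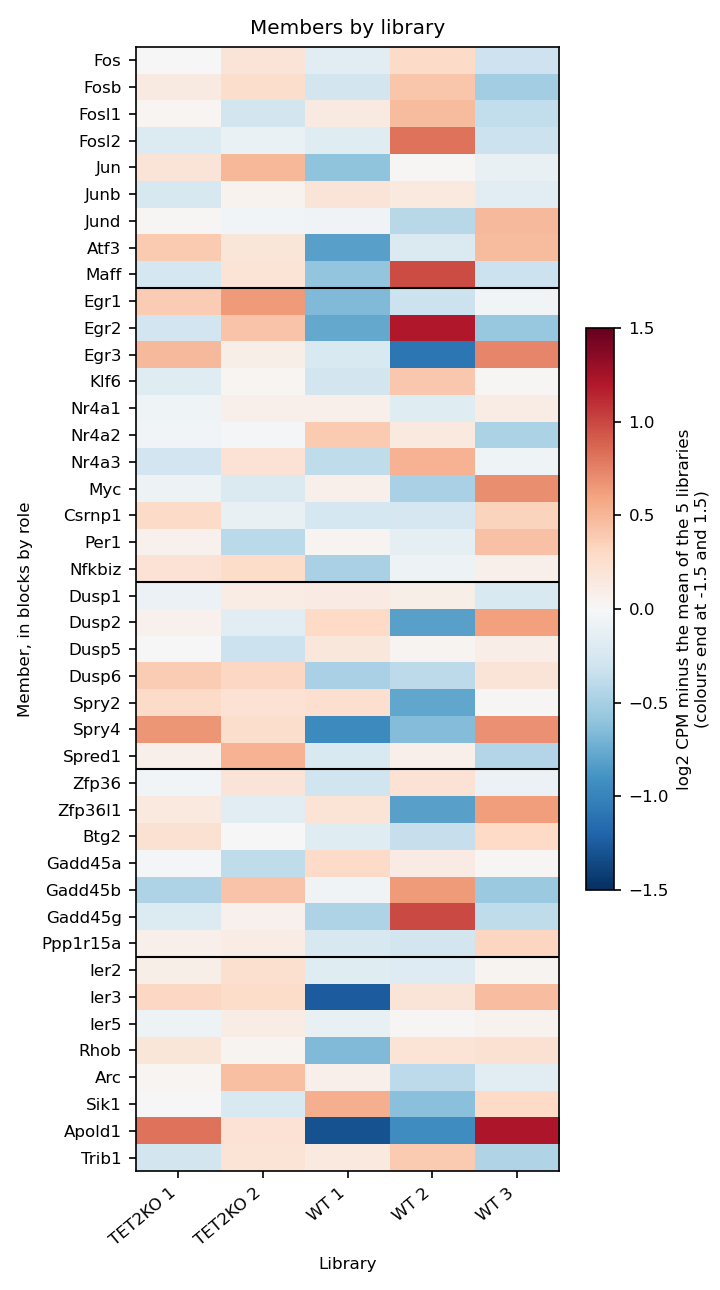
Log2 CPM of each gene minus its mean over the 5 libraries, TET2KO columns left of WT columns, in blocks by role; red is above and blue below the mean, and colours end at -1.5 and 1.5. WT replicate 1 is blue in Ier3, Apold1 and Spry4, WT replicate 2 is red in Egr2, Gadd45g and Maff and blue in Egr3, and WT replicate 3 is red in Apold1, Egr3 and Spry4.

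Leaving out WT libraries changed which of the 42 genes stood out. Without WT replicate 2, the library with the highest macrophage marker sum, 7 of the 42 genes had an unadjusted edgeR p under 0.05 (16.7%), against 10.2% of all genes: Jun, Egr1, Egr2, Spred1 and Gadd45g were higher in TET2KO, and Dusp2 and Sik1 lower; in that fit 1424 of the 1876 such genes were higher. Without WT replicate 3, the library at odds with the authors' table, 6 of the 42 did (14.3%), against 7.63% of all genes. They were Atf3, Egr1, Egr3, Dusp6, Spry4 and Apold1, all higher in TET2KO, as were 1168 of the 1407 such genes in that fit. WT replicate 3 was the highest library in Atf3, Egr3, Spry4 and Apold1, so leaving it out raises their fold changes. WT replicate 2 was likewise the highest in Egr2 and Gadd45g and the lowest in Dusp2 and Sik1. These calls thus follow in part from the library left out, and the shares are not separate results. Egr1 was the gene common to both sets, but without WT replicate 1 its log2 fold change was 0.69 with an unadjusted edgeR p of 0.118, and none of the 42 genes had an unadjusted p under 0.05 in that fit or without either TET2KO library. Without TET2KO replicate 2 the log2 fold change was -0.091 for Dusp5, -0.17 for Gadd45a, 0.18 for Arc and 0.25 for Spred1, and without WT replicate 1 it was 0.24 for Nfkbiz and -0.0069 for Sik1, each smaller than with all libraries by over 1.5 times. None of the 42 passed the adjusted threshold in edgeR in either fit, with a lowest adjusted p of 0.438 without WT replicate 2 and 0.443 without WT replicate 3 by Benjamini-Hochberg. The sign of the fold change was the same in all 16 alternative settings for 18 of the 42 genes. It changed in at least 1 setting for the others. Among the 18 were Fos, Jun, Egr1, Dusp6, Spry4, Apold1, Dusp5 and Gadd45a. All settings use the same 5 libraries or a part of them, so a constant sign is not separate support for a direction. Among the genes with a fold change given above, the sign changed for Junb, Jund, Egr2, Egr3, Nr4a1, Dusp1, Dusp2, Zfp36, Gadd45g and Sik1. No direction is given for these 10 genes with all libraries. A direction is not established for the rest of the 42 either. None passed the adjusted threshold, and the 95% interval with all libraries included 0 for every gene but Egr1.

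**Figure D5:**
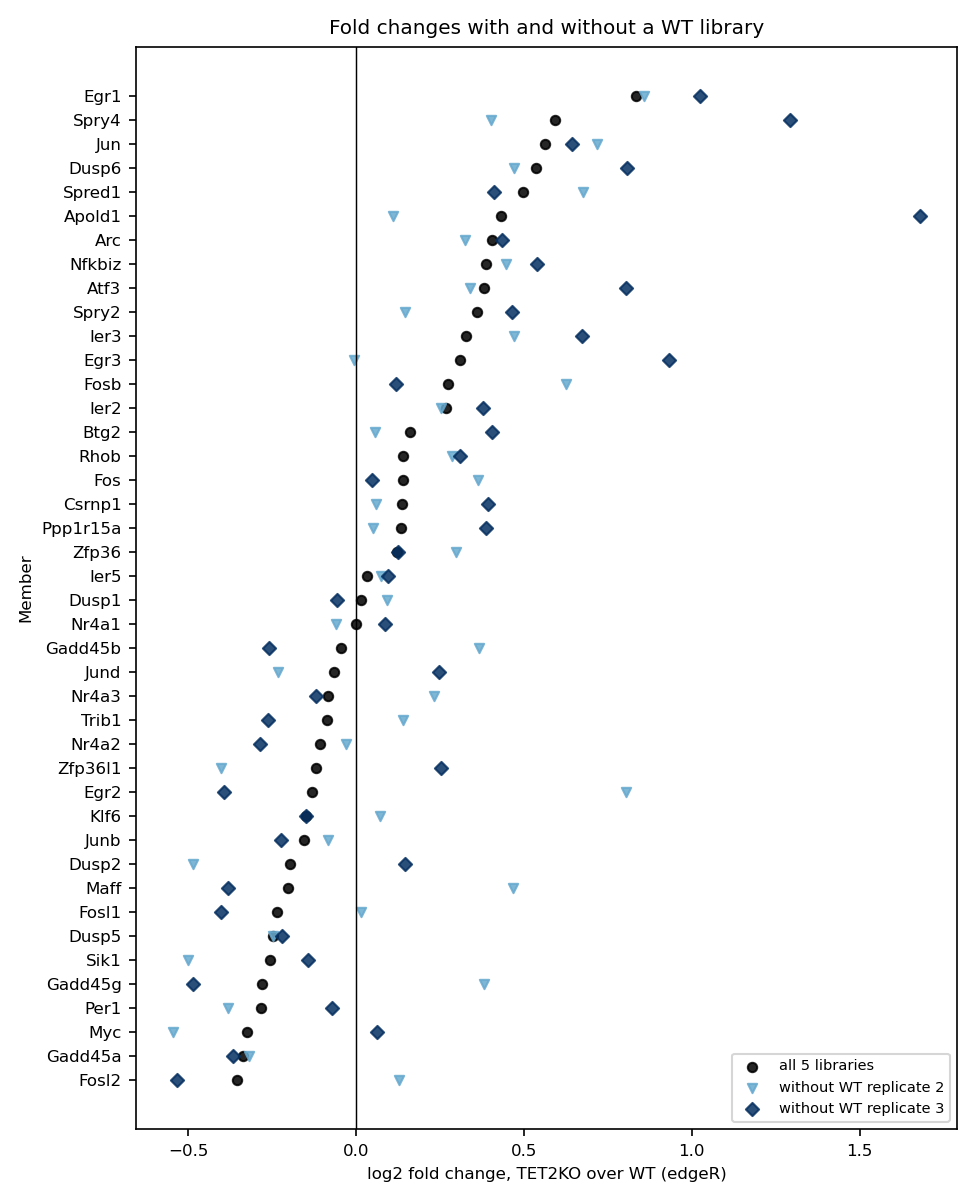
Log2 fold change of the 42 genes, TET2KO over WT, with all 5 libraries (black circles), without WT replicate 2 (light triangles) and without WT replicate 3 (dark diamonds). Apold1 is at 0.43, 0.11 and 1.68 and Egr2 at -0.13, 0.80 and -0.39, whereas Egr1 stays between 0.83 and 1.03.

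In the authors' deposited table, which groups WT replicate 3 with TET2KO, all 42 genes were listed and 3 had an adjusted p under 0.05, against 2.16% of the 13826 genes that have an adjusted p in that table. These were Apold1, with a log2 fold change of 1.93 and an adjusted p of 0.00017 in the authors' deposited table, Spry4, with 1.35 and 0.000297, and Dusp6, with 0.75 and 0.0186. Apold1 and Spry4 are among the 217 genes of the authors' deposited short list. In each of the 3 genes the library labelled WT replicate 3 was closer to TET2KO than to the other WT libraries. That follows from picking genes in a comparison that groups this library with TET2KO, so it is not a separate result. The groups by label were not separated after adjustment, as given above.

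Related pathway genes showed no member past the adjusted threshold. Of 27 genes tested in the signalling route to these genes, 2 had an unadjusted edgeR p under 0.05 (7.41%, against 5.86% of all genes). Both were higher in TET2KO, as were most such genes of the table, and the median log2 fold change was -0.07. Of the 27 genes, 8 had a fold change above 0 and 19 below 0. Both TET2KO libraries were above all WT libraries in 2 genes (7.41%) and below them in 7 (25.9%). Among all genes tested the share was 12.4% in each direction. Elk3, an ETS factor that binds SRF and is known from endothelium, had 134 and 152 CPM in TET2KO and 96.9, 104 and 101 CPM in WT, without overlap (log2 fold change 0.51 ± 0.15, edgeR adjusted p 0.740 by Benjamini-Hochberg). Egfr, the receptor that angiotensin II signalling transactivates, was low, at 2.96 and 3.23 CPM in TET2KO and 1.86, 0.879 and 1.37 CPM in WT, without overlap. The angiotensin receptors did not pass the filter on low counts: Agtr1a had 6 and 8 counts in the TET2KO libraries and 3, 4 and 4 counts in the WT libraries, Agtr1b had 0 and 0 against 0, 0 and 1, and Agtr2 had 0 counts in all 5 libraries. Differences in these receptors were not detectable at this depth.

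Of 34 other early response and feedback genes tested, 3 had an unadjusted edgeR p under 0.05 (8.82%, against 5.86% of all genes). All 3 were higher in TET2KO, as were most such genes of the table, and the median was 0.07. Both TET2KO libraries exceeded every WT library in 8 of the 34 genes (23.5%) and were under every WT library in 1 (2.94%). The share over all genes tested was 12.4% in each direction. Ptgs2, the inducible cyclooxygenase, had 78.4 and 113 CPM in TET2KO and 56.6, 45.0 and 69.7 CPM in WT, without overlap (log2 fold change 0.75 ± 0.26, edgeR adjusted p 0.792 by Benjamini-Hochberg). Spred3 had 6.98 and 6.89 CPM in TET2KO and 3.85, 4.22 and 5.02 CPM in WT, and Spry1, the third Sprouty measured, had 26.6 and 26.0 CPM in TET2KO and 18.2, 15.3 and 21.0 CPM in WT, both without overlap. Plaur, the urokinase receptor, lay the other way, with 400 and 358 CPM in TET2KO and 465, 681 and 515 CPM in WT. None of 10 inducible chaperones had an unadjusted edgeR p under 0.05, and their median log2 fold change was -0.03.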

How the data were processed

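Poly(A)-selected RNA was sequenced as paired-end reads of 150 bases from 2 TET2KO and 3 WT libraries, grouped by the sample labels. The submitters' processing notes name Trimmomatic 0.36, STAR 2.5.2b, featureCounts of Subread 1.5.2, DESeq2 and the genome GRCm38. The deposited tables hold raw counts per gene, TPM per gene, and the authors' comparison with log2 fold changes, p-values and a normalized signal (counts divided by size factors), per the file headers. How TPM was computed and whether counting used strand are not given in the sources used here.

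From the deposited counts, edgeR 4.0.16 (R 4.3.3) was run with TMM scaling, its low-count filter, the quasi-likelihood test and Benjamini-Hochberg adjustment over 18727 genes. CPM are TMM-scaled unless stated. TPM served for levels between genes. The common biological coefficient of variation was 0.339. DESeq2 1.42.0, limma 3.58.1 (voom, and log2(TPM + 1) and log2(TPM + 0.1) for genes with TPM of at least 1 in 2 libraries), other scalings and filters, a replicate block and leaving out each library were alternatives. DESeq2 on the genes that edgeR tested was added after seeing the data. The edgeR steps were tested on simulated data.

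The 42 genes, the related lists and the marker lists were chosen with earlier results of these data known, so no list test was made. All 42 genes are accounted for. Of each related list up to 4 genes with the smallest p could be named. The result of 1 related list is not reported here. Fold changes are printed for 26 of the 42, a rule set after values were seen: the 8 highest by TPM, the 12 with a fold change over its SE, and those with an unadjusted p under 0.05 without WT replicate 2 or 3. Replicate numbers 1 and 2 were checked as pairs: deviations of same-numbered libraries correlated at 0.220 and 0.493, but with only 2 pairs and no label saying so, they were not taken as pairs. Counting error is small at 27346804 to 35440257 counts per library for most of the 42 genes. The number of libraries limits precision more.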

Additional observations from a re-analysis of the deposited data

How the results depend on the processing

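With 2 TET2KO and 3 WT libraries, and 1 library able to move a fold change by more than 1 on the log2 scale (Apold1), small differences were not resolvable; low genes such as Arc also carry more counting error. No alternative put any of the 42 genes past the adjusted threshold. The count of all genes past it, 0 in edgeR, was 23 in DESeq2 and 60 in DESeq2 on the genes edgeR tested, and 0 in every other setting. The count of the 42 at an unadjusted p under 0.05, 1 in edgeR, was 2 with upper quartile scaling, library totals or no filter, 5 on log2(TPM + 1), 4 on log2(TPM + 0.1), and 0 to 7 when 1 library was left out. Where 1 TET2KO library was left out, the lone one was assumed to vary like the WT libraries. The median over the 42, 0.02, was 0.17 with library totals, 0.28 on log2(TPM + 1), 0.29 on log2(TPM + 0.1), and -0.021 to 0.13 with 1 library left out. The median of all genes moved too, to 0.06 with library totals, 0.13 on log2(TPM + 1) and 0.15 on log2(TPM + 0.1), against -0.08 with TMM. Relative to it, the median of the 42 was 0.10 with TMM, 0.10 with library totals, 0.15 on log2(TPM + 1) and 0.13 on log2(TPM + 0.1). With the replicate block, 6 of the 42 had an unadjusted p under 0.05 and 2982 genes in all, 0 after adjustment; the block takes WT replicate 3 out of the genotype contrast, and the 6 were those found without that library.

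Directions reversed for 10 of the genes with a printed fold change, and the cause was not tested. Nr4a1, at -0.0005, was 0.0067 in DESeq2, 0.0135 in DESeq2 on the genes edgeR tested, 0.0039 with voom, 0.0135 with RLE scaling, 0.073 with upper quartile, 0.13 with library totals, 0.043 with no filter, 0.014 with a CPM filter, 0.059 with the block, 0.22 on both TPM scales and -0.072 to 0.088 with 1 library left out. Egr2 was 0.12 with voom, 0.013 with upper quartile, 0.10 with library totals, 0.32 on log2(TPM + 1), 0.33 on log2(TPM + 0.1) and -0.53 to 0.80 with 1 library left out. Jund was 0.048 with library totals, 0.22 with the block, 0.19 on both TPM scales and -0.23 to 0.25 with 1 library left out. Dusp1 was -0.090 with the block and -0.086 to 0.11 with 1 library left out. Dusp2 was 0.21 with the block, 0.13 on both TPM scales and -0.48 to 0.14 with 1 library left out. On both TPM scales Junb was 0.06 (0.0595), Gadd45g 0.089 and Sik1 0.033, or 0.034 for Sik1 on log2(TPM + 0.1). With 1 library left out Gadd45g ranged from -0.53 to 0.38, Egr3 from -0.0073 to 0.93 and Zfp36 from -0.0019 to 0.30.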
